A study of Rattus norvegicus with 2 samples.

Results

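Lipogenic genes of the pathway from cytosolic acetyl-CoA to oleate, with its supply of acetyl-CoA and NADPH, were examined in rat liver on a high-fat and a low-fat diet. The group holds 8 genes, Slc25a1, Acly, Acss2, Acaca, Fasn, Me1, Scd and Thrsp. They were chosen by name as genes that supply, carry out or accompany the steps of this pathway, with earlier results of these data known. Every probe set whose single gene symbol in the platform annotation was one of these was taken, 13 in all, out of 12783 probe sets for 10411 genes with a single symbol. Total liver RNA had been hybridised to 2 oligonucleotide arrays, 1 for the high-fat diet and 1 for the low-fat diet. The labels describe both groups alike as SD rats of 4 weeks with 9 weeks of feeding, on food based on AIN93G, a purified rodent diet. An age of 4 weeks cannot follow 9 weeks of feeding, so it is not read here as the age at collection. The sources used here do not give the animals' sex, how many animals each RNA came from, the diets' fat and carbohydrate content, or the time of day and feeding state at collection. The design, a single array for each diet, allows no replicate error and no test. Each value therefore describes these arrays, and diet cannot be told apart from any other difference between the samples.

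Fatty acid synthesis in the liver starts when citrate leaves the mitochondrion and is split in the cytosol to acetyl-CoA. Acetyl-CoA is carboxylated to malonyl-CoA, which fatty acid synthase condenses into palmitate with reducing power from NADPH, and elongation followed by desaturation then gives oleate. In liver these enzymes are known to be raised by carbohydrate and insulin, largely through the transcription factors SREBP-1c and ChREBP, and polyunsaturated fat is known to lower many of them.

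Promoter letters are shown for 4 members with diet differences of unlike size, described below: Acly and Me1, both past 2-fold lower on the high-fat array, Scd, lower by a smaller fold, and Thrsp, lower by the smallest fold of the 4. RefSeq promoter windows on assembly GRCr8 were matched for 6 of the 8 members, and Acaca and Fasn are not shown. Each line is the 250 bases before the annotated start, 5′ to 3′ in the direction of the gene, at chr10:85963632-85963881 (minus strand) for Acly, chr8:96540245-96540494 (minus strand) for Me1, chr1:253231732-253231981 (minus strand) for Scd and chr1:161138965-161139214 (minus strand) for Thrsp. Capitals mark matches, on either strand, to the CCAAT box that NF-Y binds and to the GC box GGGCGG that Sp1 binds.
Acly: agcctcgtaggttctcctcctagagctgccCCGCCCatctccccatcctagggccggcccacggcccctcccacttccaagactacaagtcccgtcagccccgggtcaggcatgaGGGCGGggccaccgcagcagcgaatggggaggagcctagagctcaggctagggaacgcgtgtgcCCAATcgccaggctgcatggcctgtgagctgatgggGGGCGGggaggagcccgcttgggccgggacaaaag
Me1: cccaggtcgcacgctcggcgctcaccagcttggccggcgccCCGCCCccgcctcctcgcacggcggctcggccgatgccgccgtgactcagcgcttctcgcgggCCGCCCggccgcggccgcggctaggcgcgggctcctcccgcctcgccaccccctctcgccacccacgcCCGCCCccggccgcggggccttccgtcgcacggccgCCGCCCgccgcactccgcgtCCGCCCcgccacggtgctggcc
Scd: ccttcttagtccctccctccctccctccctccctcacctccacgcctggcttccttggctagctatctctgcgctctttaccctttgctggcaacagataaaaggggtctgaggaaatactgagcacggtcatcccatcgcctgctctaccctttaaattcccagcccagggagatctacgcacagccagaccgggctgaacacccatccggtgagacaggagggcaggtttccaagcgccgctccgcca
Thrsp: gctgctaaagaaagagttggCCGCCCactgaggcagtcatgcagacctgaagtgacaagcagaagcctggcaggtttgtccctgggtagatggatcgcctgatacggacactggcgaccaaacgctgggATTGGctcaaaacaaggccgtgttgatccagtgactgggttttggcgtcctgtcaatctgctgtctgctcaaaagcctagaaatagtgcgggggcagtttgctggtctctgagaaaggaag

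Among the 6 windows, 5 held GGGCGG and 4 held CCAAT, whereas 30.5% and 34.0% of all 33469 promoter windows of the same length held them. Acly had 3 GC boxes and 1 CCAAT, which began 71 bases before the start. Me1 had 5 GC boxes in a window of 83.2% G and C, against a median of 51.2% over all windows, and GC boxes are themselves made only of G and C. The other member windows were also above this median, from 54.0% for Thrsp to 69.6% for Slc25a1. The share of all windows with a GC box was not matched for base composition. Scd held neither motif, while Thrsp had 1 of each. The windows not printed, Slc25a1 and Acss2, each had 4 GC boxes and 1 CCAAT, so the motifs were found in members with large and with small differences alike. None of the 6 windows matched the E-box CACGTG (5.59% of all windows), the sterol regulatory sequences TCACNCCAC and TCACNCGAC (0.974% and 0.200%) or TATAAA (12.9%). The degenerate E-box CANNTG, of which CACGTG is one form, matched only Acss2 among the members and 65.5% of all windows. These are matches of letters in a short window. In the rat, the carbohydrate response element of Thrsp is known to lie farther upstream than this.

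Overall signal was similar on both arrays. Over 15866 probe sets the median signal was 14 on the high-fat and 15.7 on the low-fat array, and these medians served as floors, since the table gives no detection calls. A probe set was called measured where the mean of its log2 signals reached the mean of the log2 floors, which 7864 probe sets did. Ratios are given as log2 of high-fat over low-fat after subtracting their median over those probe sets, which was -0.12, and a positive ratio means higher on the high-fat array. All 8 genes had a measured probe set. Of the 13 probe sets 12 were measured, and the other is the second probe set of Acaca.

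All 8 members were lower on the high-fat array, taking for each gene the measured probe set with the highest mean signal. The share of all 6012 measured genes with a log2 ratio below 0 was 50%. The median log2 ratio of the members was -0.82, while that of all measured genes was close to 0 by construction. Acaca, Acly and Me1 were at least 2-fold lower, 3 of 8 members, beside 0.865% of all measured genes. At least 1.5-fold lower were 5 of 8 members, beside 5.44% of measured genes, and no member was higher. By probe set, 12 of 12 were lower and 4 were at least 2-fold lower, where 0.903% of measured probe sets passed that fold. Because the members were chosen with earlier results of these data known, these shares describe the list and are no independent support.

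**Figure D1:**
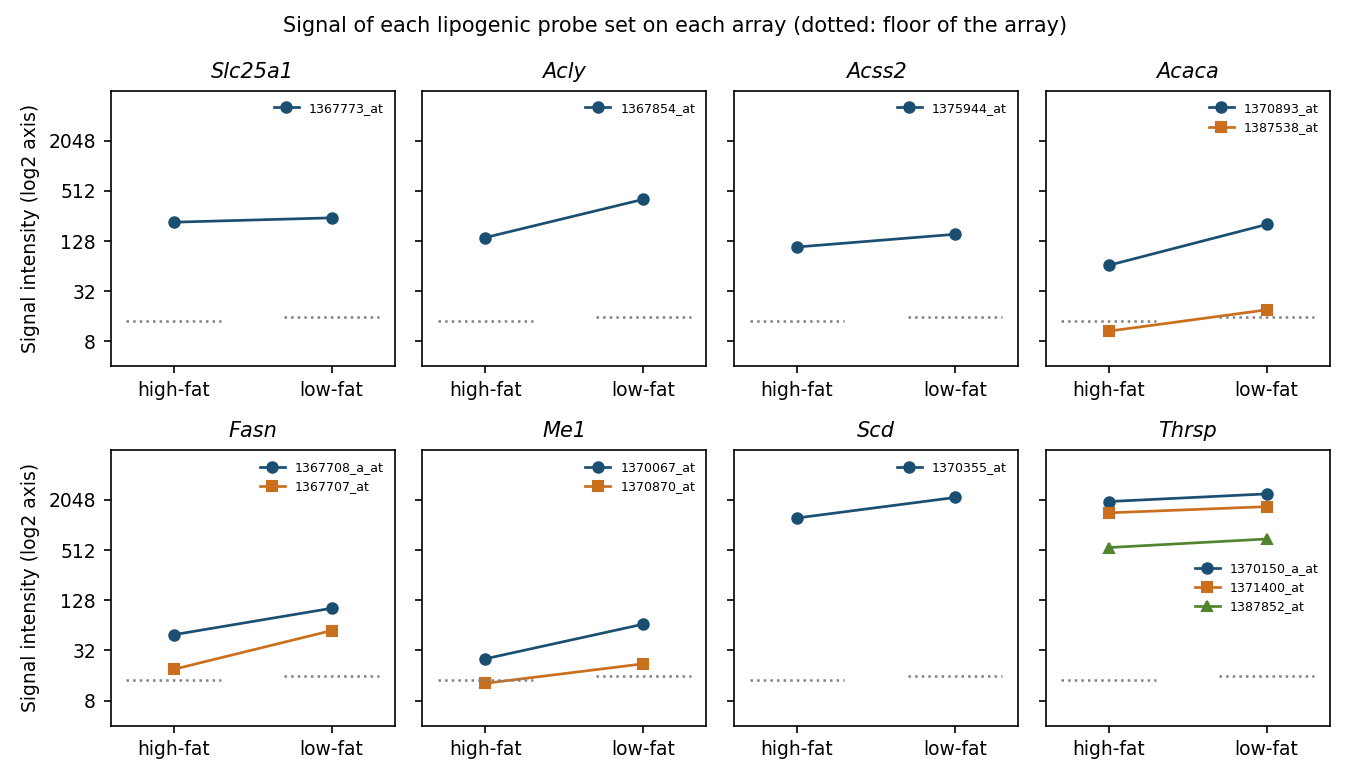
Signal intensity (vertical, log2 axis) of each probe set on the high-fat and the low-fat array, 1 panel per gene in pathway order, with each line joining the values of 1 probe set and dotted lines at the floors of 14 (high-fat) and 15.7 (low-fat). Every line is lower at its high-fat end, steeply for Acly, the brighter Acaca probe set, both Fasn probe sets and the brighter Me1 probe set, and only slightly for Slc25a1 and Thrsp.

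The steps that supply cytosolic acetyl-CoA differed from each other. Slc25a1, the mitochondrial carrier that exports citrate, had a signal of 215.2 on the high-fat array and 242.8 on the low-fat array. That is a centred log2 ratio of -0.06, and of the 500 measured probe sets nearest to it in mean signal 190 had a lower ratio, so the carrier lay within the bulk of the array. Acly, ATP citrate lyase, which splits the exported citrate into acetyl-CoA and oxaloacetate, had 140.9 on the high-fat and 404.9 on the low-fat array. Its centred ratio was -1.41, or 2.65-fold lower, and none of its 500 neighbours in signal had a lower ratio. The log2 ratio of Acly minus that of Slc25a1 was -1.35, a gap in which any scaling of a whole array cancels, and it ranged from -1.36 to -1.11 over the processing alternatives tried. Acss2, which makes acetyl-CoA from free acetate and so bypasses citrate, had 108.5 on the high-fat and 154.1 on the low-fat array. Its centred ratio was -0.39, with 29 of its 500 neighbours lower. The enzyme that uses citrate thus had the lowest ratio of the 3 and the citrate carrier the ratio closest to 0.

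The committed step, at Acaca, showed the lowest ratio of the group, 0.10 below that of Acly. With a pseudocount of 50 this order turned, with -1.07 for Acaca and -1.19 for Acly. Acaca encodes acetyl-CoA carboxylase alpha, the cytosolic isoform that makes malonyl-CoA for synthesis. On probe set 1370893_at it had 65.4 on the high-fat and 202.1 on the low-fat array, a centred ratio of -1.51 or 2.85-fold lower. This ranked 9 from the lowest of 7864 measured probe sets. The second Acaca probe set, 1387538_at, was dim, with 10.6 on the high-fat array, below the floor, and 19.1 on the low-fat array. It was lower too, by at least 1.26-fold against the floor, but it was not counted as measured.

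Fasn, the multifunctional synthase that builds palmitate from acetyl-CoA and malonyl-CoA, was read by 2 probe sets designed from the same sequence accession in the annotation. The brighter, 1367708_a_at, had 49.4 on the high-fat and 102.6 on the low-fat array, a centred ratio of -0.94, just short of 2-fold. Only 1 of its 500 neighbours was lower. The other, 1367707_at, had 19 on the high-fat array, near the floor, and 55.4 on the low-fat array, a ratio of -1.43 with no lower neighbour. The probe sets of Fasn differed by 0.49 in log2 ratio, and the choice between them decides whether Fasn counts as 2-fold lower.

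Me1, the cytosolic malic enzyme that turns malate into pyruvate and yields NADPH for the synthase, also had 2 probe sets. The brighter, 1370067_at, had 25.4 on the high-fat and 66.1 on the low-fat array, or 2.40-fold lower, with 1 of 500 neighbours lower. The dimmer, 1370870_at, had 12.9 on the high-fat array, below the floor, and 22.1 on the low-fat array. It was at least 1.46-fold lower against the floor. The spread of neighbours widens as signal falls, with a robust SD of 0.49 around this dim probe set and 0.32 around the brighter one.

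Scd, the desaturase that puts the double bond into stearate to give oleate, had 1244.1 on the high-fat and 2190.7 on the low-fat array. Its centred ratio of -0.70, or 1.62-fold lower, was smaller in size than that of Me1 but was about as rare at its signal, with 2 of 500 neighbours lower. Bright probe sets varied less, and the robust SD among those neighbours was 0.16. The platform also carries 3 probe sets of Scd2, a related desaturase, and their signals were 2.5 to 6.5 on the high-fat and 4.1 to 11.2 on the low-fat array, all below the floors. Whether the Scd probe set also reads Scd2 transcript was not tested.

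Thrsp, also called Spot 14, is a small protein without a known catalytic step of its own that is induced by thyroid hormone and carbohydrate together with the lipogenic enzymes. Its 3 probe sets had 1958.2, 1432.6 and 549.2 on the high-fat array, against 2418.7, 1701.1 and 695.6 on the low-fat array in the same order. Their centred ratios were -0.19, -0.13 and -0.22, a range of only 0.09. All 3 were lower, yet 43, 67 and 52 of the 500 neighbours of each, in that order, lay lower still. The ratio of Acaca was below that of the brightest Thrsp probe set by a difference of -1.32, that of Fasn by -0.75 and that of Scd by -0.51. The ratios of these members were thus unequal on these arrays. Whether probe sets of such different signal respond alike to a change was not tested. Over the processing alternatives the gap ranged from -1.38 to -0.83 for Acaca, from -1.30 to -0.32 for Fasn and from -0.57 to -0.46 for Scd.

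**Figure D2:**
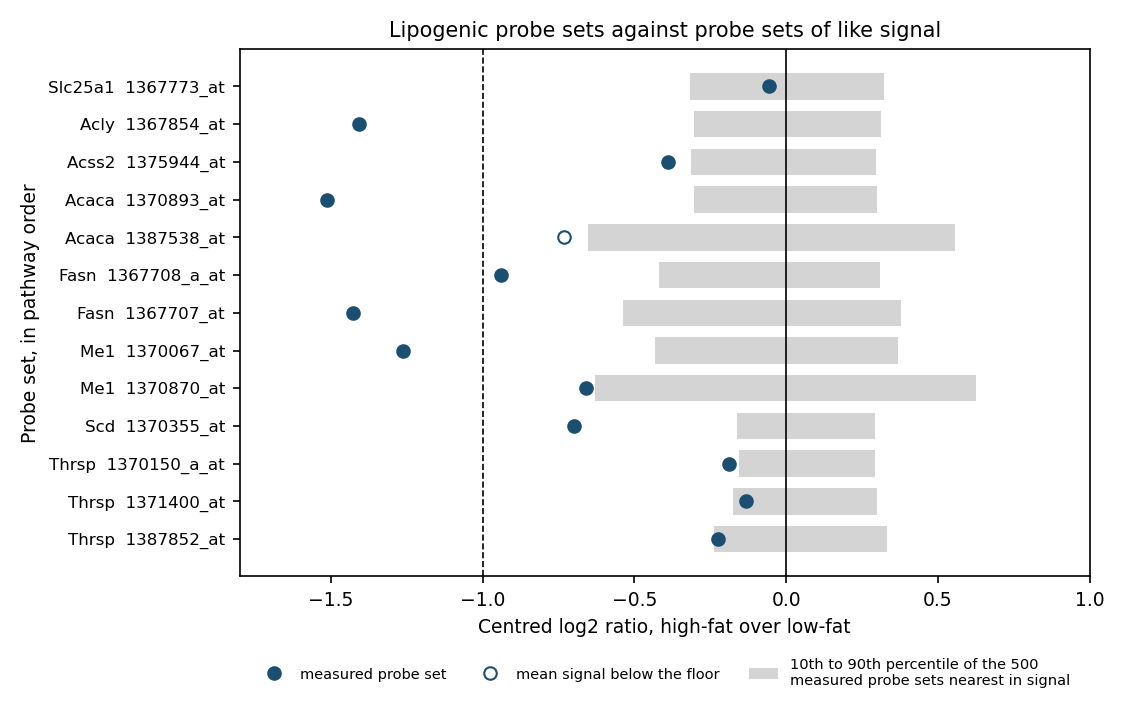
Centred log2 ratio, high-fat relative to low-fat (horizontal) for the 13 probe sets in pathway order, with filled points for measured probe sets and an open point for the dim Acaca probe set; grey bars span the 10th to 90th percentile of the 500 measured probe sets nearest in signal, and the dashed line is 2-fold lower. Acly, Acaca (1370893_at), Fasn, Me1 (1370067_at) and Scd lie well to the left of their bars, Acaca (1387538_at) and Me1 (1370870_at), both below the floor on the high-fat array, lie just outside theirs, and Slc25a1 and 2 of the 3 Thrsp probe sets lie inside theirs.

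Ordered by ratio, the members ran from Acaca through Acly, Me1, Fasn, Scd, Acss2 and Thrsp to Slc25a1. Members next to each other in that order differed by 0.10 to 0.33. The robust SD of the ratios of all measured genes was 0.29, which is a spread over genes and not the error of a difference. With 1 array per diet that error is not known, so the order of adjacent members is not resolved by these arrays. The order of Fasn and Scd, for example, turned with the processing, from -0.73 to 0.17 for the difference of Fasn minus Scd. The 5 genes outside the lists used here with a log2 ratio closest to the members' median, among 2923 bright genes, were Gys2, Mt2A, C20h6orf136, Inmt and Mcrip2, at -0.82 to -0.83. Likeness here means only that 1 ratio over 2 arrays is close in value.

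**Figure D3:**
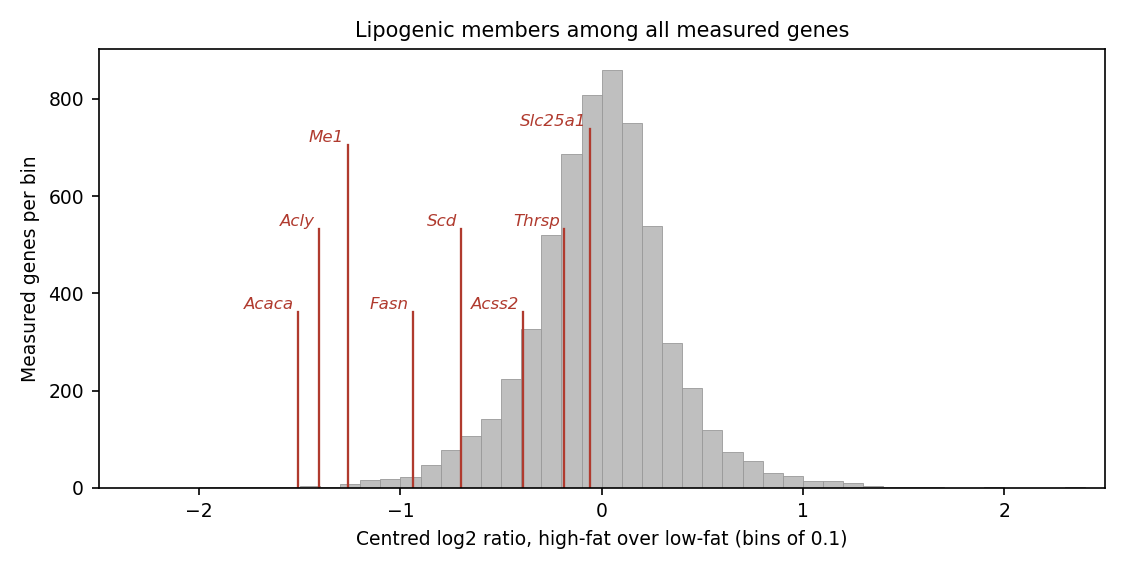
Number of measured genes (vertical) per bin of 0.1 in centred log2 ratio, high-fat relative to low-fat (horizontal), with a red line at the ratio of each of the 8 lipogenic members; the heights of the red lines carry no value. Acaca, Acly and Me1 lie in the sparse left tail, Fasn and Scd on its shoulder, and Thrsp and Slc25a1 within the main peak.

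Most other enzymes around this pathway showed smaller differences, taking the brightest probe set of each gene. Of 23 listed genes 14 were measured, with a median of -0.17. Of the measured genes 9 were lower and 5 higher, where 50% of all measured genes were lower. None was past 2-fold, where 0.865% of all measured genes were at least 2-fold lower and 0.848% at least 2-fold higher. Pklr, the liver pyruvate kinase at the end of glycolysis, had 231.1 on the high-fat and 367.2 on the low-fat array (-0.55), and its second probe set had 43.5 and 89.8 in the same order (-0.93). Pgd, an NADPH-yielding enzyme of the pentose phosphate pathway, had 69.5 and 109.4 in the same order (-0.54). Idh1, another cytosolic source of NADPH, was on the other side, with 1198.3 on the high-fat and 1149.3 on the low-fat array (0.18). Among these sources of NADPH, Pgd had the same sign as Me1 at a smaller size, and Idh1 lay within the robust SD of all genes. Mdh1, the cytosolic malate dehydrogenase that makes the substrate of Me1, was at -0.36, and at -1.21 on a dimmer probe set with 43.5 on the high-fat and 109.3 on the low-fat array. Mdh1 was singled out after its values were seen. The measured elongase and desaturase genes of this list had mixed signs. The desaturase genes were lower, Fads2 (delta-6) with -0.41 and Fads1 with -0.20. The elongase genes were higher, Elovl1 with 0.15 and Elovl5 with 0.51 (0.65 for a dimmer probe set). This does not describe the steps from palmitate to oleate. There Scd was lower (-0.70), and Elovl6, not counted as measured, had 4 on the high-fat and 25.9 on the low-fat array. Mid1ip1, a paralog of Thrsp whose product promotes polymerisation of acetyl-CoA carboxylase, had 161.4 on the high-fat and 142.1 on the low-fat array (0.30), the opposite sign to Thrsp. Acacb, the mitochondria-associated carboxylase whose malonyl-CoA restrains fatty acid oxidation, was below the floor on both arrays.

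The regulators of the pathway went both ways. Of 21 listed genes 19 were measured, 11 lower and 8 higher, with a median of -0.14, where 50% of all measured genes were lower. Without centring the counts were 14 and 5. Leaving it out shifts every gene by -0.12, and the share of all genes lower in that setting was not computed. Srebf1, which encodes SREBP-1, had 279.4 on the high-fat and 192.3 on the low-fat array (0.66), with a second probe set at 0.66. Insig1 and Insig2 encode proteins of the endoplasmic reticulum that hold SREBP precursors back from processing. Insig1 was at 0.64, and Insig2 had 446.3 on the high-fat and 213.9 on the low-fat array (1.18), the member of this list past 2-fold, where 0.848% of all measured genes were at least 2-fold higher. Mlxipl, the gene of ChREBP, was at 0.20, and Nr1h3, the gene of the liver X receptor alpha, at -0.32. Lpin1, a phosphatidate phosphatase and coregulator, had 182.4 on the high-fat and 379.7 on the low-fat array (-0.94, and -1.06 without centring), a ratio like that of Fasn. An array of this kind reads transcript, not the processed, nuclear form of SREBP-1.

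Genes that esterify fatty acids into triglyceride were near the level of all genes. Of 13 listed genes 8 were measured, for a median of -0.01. With 5 lower and 3 higher (4 and 4 after loess or quantile normalization), they stood beside 50% of all measured genes lower. None was past 2-fold, where 0.865% of all measured genes were at least 2-fold lower and 0.848% at least 2-fold higher. Dgat1 and Gpd1, for the last acylation and for glycerol 3-phosphate, were at -0.47 each, and Acsl5, an acyl-CoA synthetase, was at -0.36. Acsl4, another such synthetase, was at 0.23, and Dgat2, the second acyltransferase of this step, at 0.15, with 761.2 on the high-fat and 745.8 on the low-fat array.

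**Figure D4:**
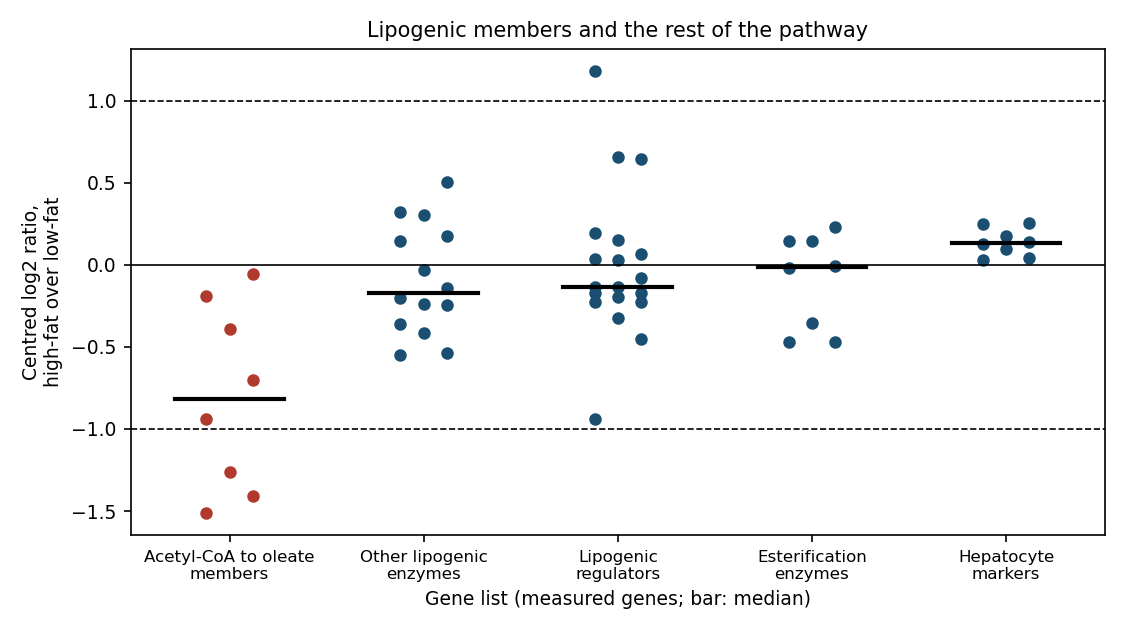
Centred log2 ratio, high-fat relative to low-fat (vertical) of each measured gene in the 8 lipogenic members (red) and in 4 other lists (blue), with black bars at the medians and dashed lines at 2-fold; horizontal offsets within a list carry no value. The median of the members is -0.82, against -0.17 for other lipogenic enzymes, -0.14 for regulators, -0.01 for esterification enzymes and 0.13 for hepatocyte markers.

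The label of the tissue was checked against markers of liver cells and of adipose tissue, which also makes fat. The 8 measured hepatocyte markers had a median of 0.13, with 8 of 8 higher on the high-fat array, where 50% of all measured genes were lower. After loess 4 of these markers were higher and 4 lower, with a median of 0.0012. Their summed signal was 43580 on the high-fat and 43160 on the low-fat array. In whole liver, fewer cells of a type and less RNA per cell cannot be told apart. Of 9 adipocyte markers 6 were on the array and 1, Cfd, was measured, at 0.02 and at -0.10 without centring, with the list summing to 90.5 on the high-fat and 87.2 on the low-fat array. None was at 0, but the other 5, Lep, Plin1, Fabp4, Lipe and Pparg, were below the floor on both arrays. Macrophage markers had a median of 0.01 over 7 measured genes (-0.11 without centring), endothelial markers -0.03 over 3, cholangiocyte markers -0.17 on 1 and red cell markers 0.14 over 2. Of 8 stellate cell markers on the array 4 were measured, and those 4 were lower under every scaling run, where after centring 50% of all measured genes were lower. The Col1a2 probe set counted there, at -1.06, had 13.2 on the high-fat array, below the floor, and its second measured probe set was at 0.07. Of the markers not measured, Col1a1 and Pdgfrb were higher on the high-fat array and Des and Acta2 lower, all below the floors on both arrays. The measured stellate genes had a median of -0.43, and the whole list summed to 323.4 on the high-fat and 424.7 on the low-fat array. The part of these differences in the lipogenic ratios was not tested.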

How the data were processed

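Liver RNA of 1 high-fat and 1 low-fat sample was measured on rat arrays. The deposited table gives each probe set 1 linear signal intensity on each array, as judged from the values. How the authors corrected, summarised and scaled them is not given in the sources used here. Of 15923 probe sets 57 controls were left out, and of the other 15866, 4 with a 0 on an array got no ratio. Log2 was taken without a pseudocount. The platform annotation gave 12783 of the 15866 a single gene symbol and 312 more than 1, and left 2771 without a name here. An Entrez look-up in the GRCr8 gene table changed 0 symbols. For members and Elovl6 with a high-fat signal below its floor, the fold given was computed against the floor and is a bound. Other genes, Col1a2 among them, are given with their plain ratio. Intensities of different probe sets were not compared as amounts of transcript. They did serve to pick the brightest probe set of a gene, to find neighbours in signal and to sum marker lists. Robust SD is the scaled median absolute deviation. The number of arrays limits the precision of every value.

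The members, the gene lists and the procedure were chosen with earlier results of these data known. All members were named. Of each pathway list up to 4 measured genes with the largest ratio and a set of named genes (among them Srebf1, Mlxipl, Nr1h3, Mid1ip1, Idh1, Dgat2) were named. Of marker lists mainly counts and sums are given. The alternatives were no centring, centring on 18 hybridization controls, quantile normalization, loess, a pseudocount of 50 and 3 other floor settings. Further ones were signals set to the floor, the median over probe sets and leaving out probe sets with a letter such as a, s or x before _at in their names. Of the members, that last setting left out 1367708_a_at of Fasn and 1370150_a_at of Thrsp. Under some of these settings the procedure was also run on simulated data, with large known shifts in bright probe sets. The simulated noise was smaller than the spread of all measured genes here. That run does not bear on dim probe sets or on the precision of the values. Python 3.11.15 was used with numpy 2.4.6, pandas 2.3.3, statsmodels 0.14.6 and matplotlib 3.10.9.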

Additional observations from a re-analysis of the deposited data

How the results depend on the processing

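Across 11 alternatives every measured member gene stayed lower on the high-fat array, 7 of 7 with the floor at the 75th percentile, where Me1 was no longer measured, and 8 of 8 otherwise. The members' median ranged from -0.98 to -0.56, and 2 to 4 members were at least 2-fold lower. Acly and the brighter Acaca probe set were past 2-fold under each alternative in which they were run, at -1.52 to -1.19 and -1.63 to -1.07. A pseudocount of 50 pulled dim genes toward 0, by its own construction, to -0.56 and -0.55 for the Fasn probe sets and -0.56 for the brighter Me1 probe set. Scd ranged from -0.82 to -0.67, the brightest Thrsp probe set from -0.31 to -0.16, and Slc25a1 from -0.17 to -0.03. The median of other lipogenic enzymes ranged from -0.29 to -0.14 and that of regulators from -0.25 to -0.04. The median of esterification enzymes, from -0.13 to 0.02, was above 0 with the floor at the 25th percentile and with no floor. The share of all genes at least 2-fold lower, 0.865% as reported, was 9.57% with no floor, 3.84% with the floor at the 25th percentile and 0.317% at the 75th, 0.0661% with a pseudocount of 50, 0.566% with signals set to the floor and 1.31% without centring. Ratios of probe sets near the signal of Fasn and Me1 were spread more widely than those near Scd and Thrsp, and with 1 array per diet measurement error was not assessed. No paired analysis was possible because each diet had 1 array.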

Other observations

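Elovl6, the elongase that lengthens palmitate to stearate between Fasn and Scd, was not counted as measured because its mean signal fell under the floor, and it was chosen after its values were seen. Its probe set had 4 on the high-fat array, below the floor, and 25.9 on the low-fat array, above it. Set against the floor, its signal was lower on the high-fat array by at least 1.71-fold.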
